A study of Macaca fascicularis with 8 samples.

Results

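Cells with open chromatin at EGFL7 were compared with cells of the same library in which the locus gave no signal. In each of the 8 single-cell ATAC libraries, barcodes with at least 1000 counts were kept, and the cut ends in peaks that overlapped the EGFL7 core (positions 1786000 to 1811000 of chromosome 15) were summed per cell. A cell with at least 4 cut ends was called open and a cell with 0 was called closed. The rule gave 8430 open cells and 59557 closed cells among 78917 kept barcodes, so that 10.7% of the barcodes were open, and the other 10930 cells with 1 to 3 cut ends belonged to neither group. The members were thus chosen by their counts at the core, which are given here only as a description.

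The libraries came from normal organs of adult cynomolgus monkeys (Macaca fascicularis). Colon, heart, lung, uterus and one liver library came from the female animal, and kidney, spleen and the other liver library from the male animal. Outside the liver each organ was sampled in a single animal, so that the organ cannot be told apart from the animal or the library, and a p-value over libraries measures the spread between these libraries and not between animals. The female liver was the shallowest library, with 2627231 counts in total, and colon the deepest, with 110748462. Between 17 and 379 barcode sequences occurred in both libraries of each of the 28 pairs, and summed over the pairs 39 of these shared barcodes were open in both.

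EGFL7 encodes a secreted protein with EGF-like domains that is made mainly by the endothelial cells lining blood vessels, and an intron of the gene hosts the endothelial microRNA miR-126. The protein binds to the matrix around growing vessels and takes part in vessel formation, and it can bind Notch receptors. In another assembly of the same species (T2T-MFA8v1.1), the protein-coding genes next to EGFL7 are AGPAT2, an enzyme of lipid synthesis, on one side and an uncharacterised locus followed by NOTCH1 on the other. The study's methods name macFas6 for the RNA data, and neither they nor the labels name a build for the deposited peaks. No region of the genome-wide comparison was therefore assigned to a gene, no other endothelial marker could be read to check the identity of the open cells, and they are called by their state at EGFL7 and by no cell type name. Positions are those of the deposited peaks.

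At the fixed threshold of 4 cut ends, the share of open cells ran from 1.88% in kidney to 35.9% in heart. Heart had the highest share, with 1872 of 5220 barcodes open (35.9%, exact binomial interval at 95% 34.6 to 37.2), followed by lung with 3473 of 13117 (26.5%, 25.7 to 27.2). Uterus with 616 open cells (10.7%, 9.89 to 11.5) and the male liver with 1217 (10.2%, 9.66 to 10.8) followed, with intervals that overlapped each other. Colon had 474 open cells (3.82%, 3.49 to 4.17), spleen 579 (2.89%, 2.66 to 3.13) and kidney 183 (1.88%, 1.62 to 2.17). The female liver had only 16 open cells of 728 (2.20%, 1.26 to 3.54), with an interval that overlapped those of colon, spleen and kidney. These intervals cover counting error only. The peaks that the authors called at the core covered the most in lung (24513 bp, in a single peak) and heart (22814 bp), but the order of the other libraries was not that of their open shares: 18157 bp in the female liver, 18049 bp in the male liver, 12712 bp in spleen, 12609 bp in kidney, 8993 bp in colon and 7577 bp in uterus. The median depth of the kept barcodes also differed, with 2041 counts in the female liver, 2276 in spleen and 3694 in kidney, against 6466 to 7446 in the other 5 libraries. With a threshold of 2 cut ends the shares were 53.7% in heart, 43.7% in lung, 29.6% in the male liver, 22.4% in uterus, 14.5% in colon, 12.9% in spleen, 11.6% in kidney and 10.3% in the female liver, so that the male liver came before uterus. The part of peak extent and depth in the shares was not tested.

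**Figure D1:**
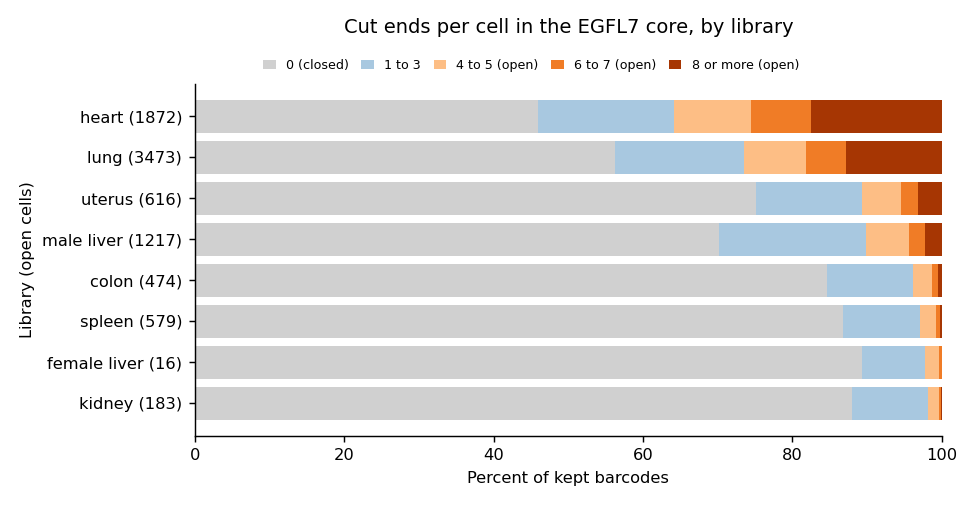
Percent of kept barcodes by the number of cut ends in the EGFL7 core (x axis) for the 8 libraries (y axis, with the number of open cells). Heart and lung have the widest open segments, 35.9% and 26.5%, and cells with 8 or more cut ends are the largest open class in these 2 libraries only.

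Within the open group the signal was strongest in lung and heart. Of the open cells, 1682 of 3473 in lung and 917 of 1872 in heart had 8 or more cut ends. The numbers were 181 of 616 in uterus, 262 of 1217 in the male liver and 70 of 474 in colon. Spleen had 48 of 579, kidney 7 of 183 and the female liver 0 of 16. Cut ends were not scaled to the bases covered by core peaks, which were most in lung and heart. The median open cell had 7 cut ends in heart, 6 in lung and uterus and 4 in the other 5 libraries. Open cells held 89.4% of all core cut ends in heart, 86.6% in lung, 72.2% in uterus and 60.4% in the male liver. In colon (47.2%), spleen (40.3%), the female liver (36.5%) and kidney (30.2%) most of the core signal lay in cells below the threshold. Just inside the threshold, 13 to 1078 cells per library had exactly 4 cut ends, and just outside it 1 to 82 cells had 3 and 58 to 2295 had 2. Counts were mostly even (75.7 to 95.5% of the non-zero values per library), since both ends of a fragment were usually counted in the same peak.

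Open cells had more total counts than closed cells in most libraries, for example a median of 5257 against 2186 in spleen, where 289 of the 579 open cells fell in the highest of 10 depth classes (deciles of total counts). Each open cell was therefore matched to a closed cell of the same class. The matched medians were then close, such as 5257 and 5231 in spleen, 10333 and 10280 in colon and 7735 and 7735 in lung. The sums were less alike in spleen, where the regions compared below held 2533640 counts in open and 2010850 in closed cells. This sum was larger in open cells in every library used, and the part of the remaining difference in the results was not tested. In heart, 501 open cells had no closed partner and were left out. The female liver was below the minimum of 50 open cells, and 7 libraries with 7913 matched pairs remained. Among the matched cells, the share with a high simulated-doublet score was higher in open than in closed cells in colon (20.5% against 14.3%), heart (6.64% against 3.50%), kidney (12.6% against 9.29%), male liver (24.1% against 15.7%), lung (20.8% against 10.8%) and uterus (10.2% against 9.09%), and lower in spleen (45.8% against 47.7%). Without such cells, the comparison over all regions called 706 higher and 201 lower regions in place of 676 and 149. Only 549 higher and 85 lower regions were the same in both.

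Around the core, peaks that the rule had not used were also more accessible in open cells. These were the remaining peaks that lay wholly inside the window displayed for EGFL7 (positions 1772849 to 1832850), with 4 to 8 peaks per library. In heart, the male liver and spleen, 1 further peak crossed the edge of the window and was not counted. This peak held 2767 cut ends of the kept barcodes in heart and 206 in spleen. In the male liver it held 6255, whereas the largest counted flanking peak held 2441. Per 1000000 counts of the same cells (CPM), open cells had 75.7 cut ends in kidney, 116 in spleen (the median library) and 252 in lung. The matched closed cells had 38.9 in colon, 56.3 in spleen (again the median) and 95.6 in lung. The ranges of the groups overlapped across libraries, but within each library the open cells were higher. The mean log2 fold was 1.20 ± 0.317 (SD, n = 7 libraries), from 0.75 in kidney to 1.56 in heart, and an exact two-sided sign-flip permutation test gave p = 0.0156, the smallest that 7 libraries allow (adjusted over 4 such tests, p = 0.0208).

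Elsewhere in the genome, cells open at EGFL7 resembled one another. For each library, the matched cells were placed by their accessibility in regions shared by all libraries outside the EGFL7 window, and the 20 nearest neighbours of each cell were counted. In lung, 78.7% of the neighbours of an open cell were open, against 20.0% of those of a closed cell. In kidney the shares were 56.3% and 45.5%, the narrowest gap of the 7 libraries. The other libraries lay between, with 61.4 to 77.0% for open and 25 to 34.6% for closed cells, so that the ranges of open and closed cells did not overlap. The mean difference was 38.3 percentage points ± 16.5 (SD, n = 7 libraries, 10.8 to 58.7), higher in 7 of 7 libraries (exact sign-flip permutation test, p = 0.0156, adjusted p = 0.0208).

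**Figure D2:**
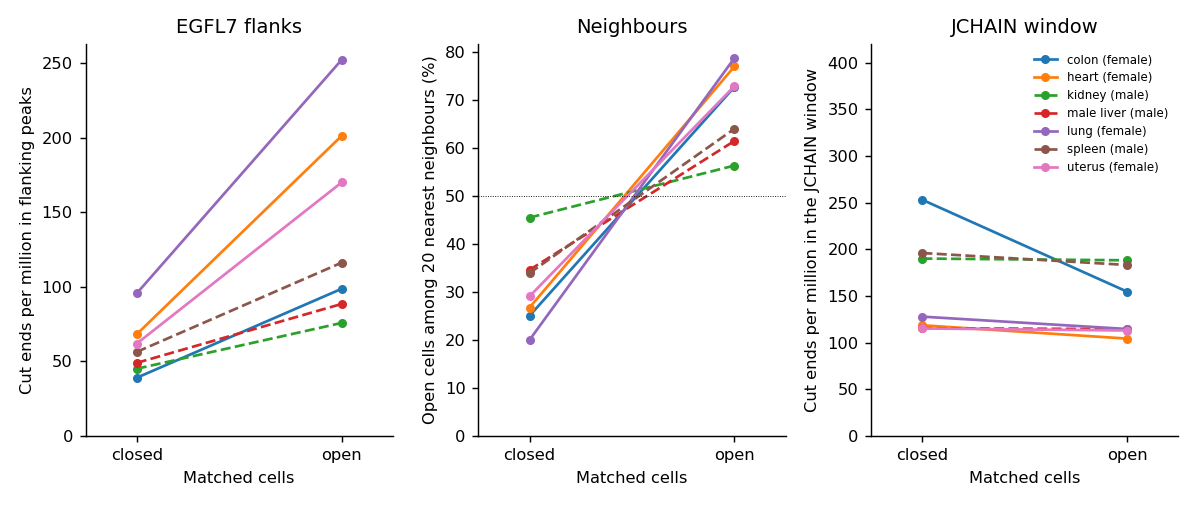
Values of matched closed and open cells per library (1 line each, solid for the female and dashed for the male animal): CPM in the EGFL7 flanks, percent of open cells among the 20 nearest neighbours (dotted line at 50%), and CPM in the JCHAIN window. All 7 lines rise in the first 2 panels; in the third, colon drops from 253 to 154 and the other 6 lines are nearly flat.

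JCHAIN, which encodes the joining chain of secreted antibodies and marks plasma cells, was the other locus with a printed position. The windows of both loci were taken from the positions shown in the study's figures, on the assumption that these and the deposited peaks share a build. Its window had 104 to 188 CPM in open cells, with a median library at 114, and 115 to 253 in closed cells, with a median of 128. The groups overlapped. The log2 fold was below 0 in 7 of 7 libraries, but only slightly so outside colon: it was -0.71 in colon and between -0.19 and -0.01 in the other 6. The mean was -0.17 ± 0.248 (SD, n = 7; exact sign-flip permutation test, p = 0.0156, adjusted p = 0.0208). Another random draw of the closed cells gave -0.09 (p = 0.531 in the same exact test), and the call was also lost with 2 other open thresholds, a higher depth minimum and removal of likely doublets.

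To find which regions differed, the counts of open and of matched closed cells were summed per library over 19960 regions that had a peak in all 8 libraries, outside the EGFL7 window. After a filter on low counts, 19942 regions were tested in a fit of all 7 libraries with the library as a block (edgeR's quasi-likelihood test, Benjamini-Hochberg adjusted p below 0.05). Accessibility was higher in open cells in 676 regions, or 3.39% of those tested, and lower in 149, or 0.747%. At an unadjusted p below 0.05 there were 3688 regions. The median log2 fold over all tested regions was -0.03. With another random draw of closed cells the counts were 693 and 111, of which 554 and 66 were the same regions, so that single lower calls depended on the draw. Without lung, 289 higher and 18 lower regions were called, and without the library as a block 0 and 0 (536 at an unadjusted p below 0.05, edgeR).

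**Figure D3:**
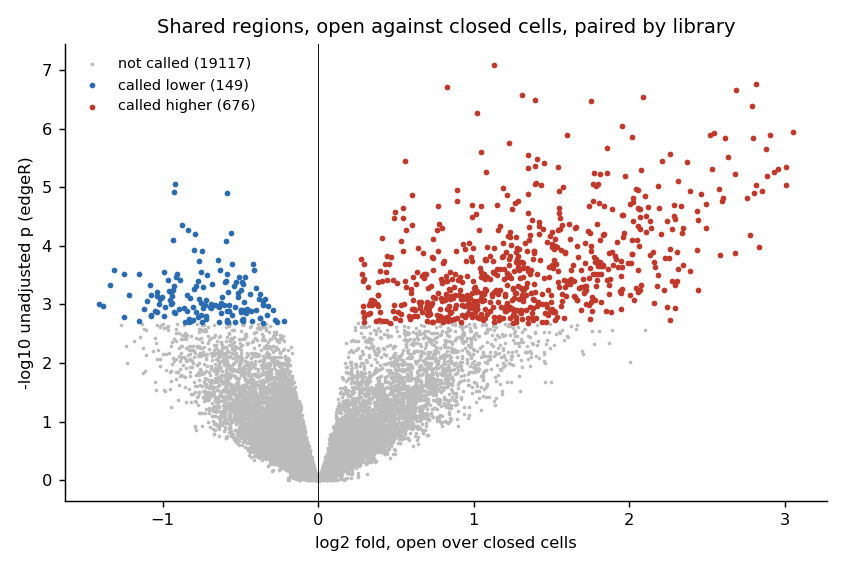
log2 fold of open over closed cells (x axis) against -log10 of the unadjusted edgeR p (y axis) for 19942 shared regions, with the 676 called higher in red and the 149 called lower in blue. The higher regions extend to a log2 fold of 3.05, whereas no lower region passes -1.41.

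Regions called higher changed by more than those called lower. In the higher regions, the median log2 fold was 1.29 (0.28 to 3.05), 470 of the 676 were at least 2-fold and 107 at least 4-fold higher, and the median level was 38.2 CPM in open cells against 13.4 in closed cells. In the lower regions the median log2 fold was -0.72 (-1.41 to -0.22), 22 of the 149 were at least 2-fold lower and 0 at least 4-fold, and the median level was 28.2 in open against 48.0 in closed cells. Of the higher regions, 534 (79.0%) were higher in all 7 libraries, a direction that 4.79% of all tested regions showed. Of the lower regions, 106 (71.1%) were lower in all 7, against 3.57% of all tested regions. The values of open and closed cells did not overlap across libraries in 16 of the higher regions and 0 of the lower ones, compared with 0.0852% of all regions. The calls come from a paired test over the same 7 libraries, which favours one direction in all of them. These shares are therefore a description of the called regions. Lower regions were wider, with a median of 3286 bp against 2154 bp in the higher regions and 2101 bp in all tested regions.

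Because open cells were selected at chromosome 15, the regions next to the left-out window were looked at one by one. Of 17 regions within 0.25 Mb, 2 were called higher (11.8%) and 0 lower, and of 53 at 0.25 to 1 Mb, 6 were called higher (11.3%). At 1 to 5 Mb the count was 2 of 58 (3.45%), and at 5 Mb and more 25 of 712 (3.51%), against 641 of 19102 (3.36%) on the other chromosomes. The nearest called region before the window was chr15:1462129-1470888, 302 kb away, with a log2 fold of 0.73 (SE 0.13). Its fold was below 0 in kidney (-0.12) and above 0 in the other 6 libraries. The nearest called region after the window was chr15:1921540-1931777, 88.7 kb away, with a log2 fold of 0.65 (SE 0.15), from 0.19 in spleen to 1.52 in lung. Both were called with edgeR at adjusted p = 0.0131 and 0.0332, but were not called in 6 and 9 of 25 alternatives. Neither was called at a threshold of 2 cut ends (adjusted p = 0.056 and 0.0608), with cells chosen on the whole window (0.0535 and 0.0744), in the female libraries alone (0.0682 and 0.0578), in the male libraries alone (0.453 and 0.909) or without the library as a block. The region before the window was not called without lung (adjusted p = 0.0573), and that after it was not called without heart (0.0997), kidney (0.0541), lung (0.0518) or uterus (0.106). A region nearer the window, chr15:1740234-1743708 at 29.1 kb, had a log2 fold of 1.87 (SE 0.52) but did not pass the test (edgeR, adjusted p = 0.0772).

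The clearest change near the locus lay 125 kb beyond the window, at chr15:1957762-1962543. Open cells had from 40.0 CPM in colon to 184 in lung, with a median of 88.8. Closed cells had from 4.67 in colon to 30.9 in spleen, with a median of 13.1. The lowest open library was above the highest closed library, so the groups did not overlap. The log2 fold was 2.81 (SE 0.25; edgeR, adjusted p = 0.000838), from 1.52 in spleen to 3.61 in lung.

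Most of the strongest changes were on other chromosomes. The region with the smallest p, chr6:169803613-169810791, was higher in open cells by a log2 fold of 1.13 (SE 0.09; edgeR, adjusted p = 0.000838), with a narrow range from 0.76 in the male liver to 1.44 in colon. Its level ran from 55.9 to 313 CPM in open cells (median 121) and from 20.4 to 115 in closed cells (median 66.6), so that the groups overlapped between libraries although each library moved the same way. At chr6:138894851-138897994 the groups did not overlap: open cells had 52.4 to 130 CPM (median 59.0) and closed cells 18.5 to 49.2 (median 31.9), with a log2 fold of 1.31 (SE 0.12). At chr1:185060562-185061953 they did not overlap either, with 30.2 to 99.5 (median 62.8) in open and 3.79 to 23.6 (median 17.5) in closed cells and a log2 fold of 2.09 (SE 0.19). Kidney had the smallest fold there, 0.78, from 15 counts in open and 8 in closed cells.

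In 3 named regions the median level of closed cells was under 5 CPM. At chr14:118617097-118618196, closed cells had 1.02 to 11.0 CPM (median 3.28) and open cells 8.37 to 56.4 (median 30.9), a log2 fold of 3.05 (SE 0.33) that was the highest of all tested regions. The lowest open value, in uterus, lay below the highest closed value, in spleen. At chr14:12462487-12463711, open cells had 8.07 to 56.8 (median 41.6) and closed cells 0 to 13.2 (median 4.97), with a fitted log2 fold of 2.79 (SE 0.27). The closed value of 0 was in kidney, against only 4 counts in its open cells. At chr13:43684589-43685762, open cells had 15.3 to 76.1 (median 36.1) and closed cells 1.46 to 24.98 (median 4.37), with a log2 fold of 2.69 (SE 0.24). Heart had the smallest fold of that region, 1.60, and the highest closed value.

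Like all 12, the other 5 named higher regions had to be higher in every library to be named. The widest of them, chr16:71296177-71310587 with 14411 bp, had a modest log2 fold of 0.83 (SE 0.07) but the highest level, 229 to 465 CPM in open cells (median 375) and 129 to 281 in closed cells (median 212). The log2 fold was 1.39 (SE 0.13) at chr3:43921887-43927109, 1.75 (SE 0.17) at chr3:178127227-178131201, 1.02 (SE 0.10) at chr16:734239-737715 and 1.95 (SE 0.20) at chr2:45727692-45729669. In edgeR, the 12 named higher regions had adjusted p-values between 0.000838 and 0.0015. At chr2:45727692-45729669, the closed cells of kidney had no count, against only 2 counts in its open cells. The range there was 0 to 16.7 CPM in closed and 4.03 to 64.4 in open cells. At chr3:178127227-178131201, kidney had 4 counts in open and 1 in closed cells.

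**Figure D4:**
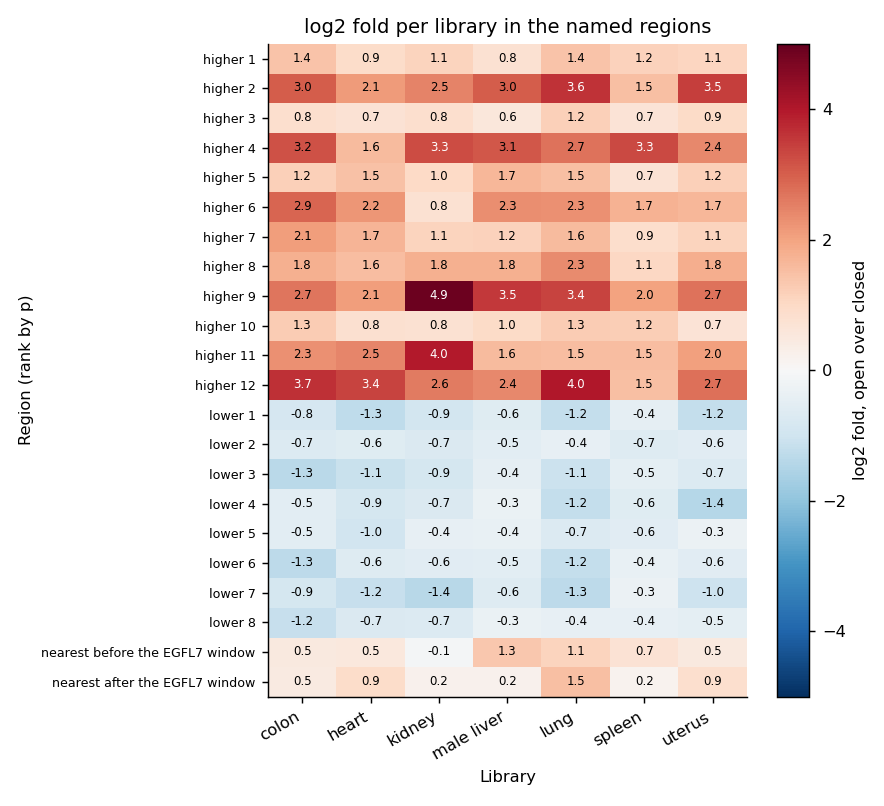
log2 fold of open over closed cells in each of the 7 libraries (columns) for the 12 higher and 8 lower regions with the smallest p among those that moved the same way in every library, and for the nearest called region on each side of the EGFL7 window (rows, ranked by p). Spleen often has the smallest fold, and the lower regions stay within -1.42 and -0.29.

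The named lower regions changed less. The smallest p was at chr13:47581006-47591183, where open cells had 7.06 to 145 CPM (median 33.4) and closed cells 15.3 to 197 (median 80.9), a log2 fold of -0.92 (SE 0.12; edgeR, adjusted p = 0.00332). Colon and spleen had the highest levels of this region in open and in closed cells, and uterus and kidney the lowest, so that the groups overlapped. At chr12:114820755-114823659 the libraries were more alike, with 41.1 to 59.5 (median 51.6) in open and 55.3 to 96.5 (median 75.4) in closed cells and a log2 fold of -0.59 (SE 0.08; adjusted p = 0.00364). The log2 folds of the other 6 lay between -0.94 at chr1:18878518-18881037 and -0.56 at chr13:65357942-65369466. All 8 had to be lower in every library to be named.

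Called regions gathered in some places. The 1 Mb window with most higher regions, 96 to 97 Mb of chromosome 10, held 11 among 37 tested, with log2 folds of 0.34 to 2.28 (median 1.22), while all tested regions of that window had a median of 0.30. Of these 11, chr10:96295838-96298207 had the smallest adjusted p (edgeR, 0.00267) with a log2 fold of 1.86 (SE 0.23), and chr10:96492011-96494006 the highest fold with 2.28 (SE 0.46). On chromosome 2, 7 of 33 regions at 104 to 105 Mb were higher (median 0.49), and on chromosome 15, 6 of 32 at 10 to 11 Mb (median 0.95). Lower regions gathered at 101 to 102 Mb of chromosome 1 (4 of 11, median -0.63), 108 to 109 Mb of chromosome 14 (3 of 11, median -0.87) and 51 to 52 Mb of chromosome 19 (3 of 17, median -0.57). None of these 6 windows held a call in the other direction. These windows were chosen for their counts, which are therefore a description. The counts changed when a library was left out. The count at chromosome 10 was 7 without heart and 9 to 11 without any other library. At chromosome 2 it was 1 without lung and 2 without heart or uterus, and at chromosome 15 it was 2 without lung and 1 without heart or uterus. The counts of lower regions were 0 at chromosomes 1 and 19 and 1 at chromosome 14 without lung. Without spleen or uterus all 3 lower windows held 1, and without heart they held 1, 1 and 2. By chromosome, the share called higher ran from 0.211% on X (1 of 474 regions) and 1.45% on 5 to 4.91% on 10 and 4.95% on 2, beside 3.39% of all tested regions, and the share called lower from 0% on X to 1.81% on 8, beside 0.747%.

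Each library was then set against regions called without it. The regions called higher in the other 6 libraries had a median log2 fold above 0 in every held-out library, from 0.62 in spleen (607 regions) over 0.95 in the male liver (544), 1.03 in kidney (532), 1.14 in heart (354), 1.24 in uterus (366) and 1.30 in colon (838) to 1.91 in lung (289). Between 79.7% of the regions in kidney and 98.0% in heart were higher in the held-out open cells, compared with 43.5 to 51.6% of all tested regions. For the regions called lower, the median was -0.999 in lung (18 regions), -0.62 in uterus (26), -0.49 in heart (32), -0.28 in the male liver (95), -0.16 in spleen (87) and -0.11 in kidney (133). In colon the median was 0.13 over 298 regions. The share of these regions that were lower in the held-out open cells was 43.6% in colon, against 48.3% of all tested regions, and 56.4% in kidney, against 49.4%. In the other 5 libraries it was 66.7 to 92.3%, against 49.9 to 56.5% of all tested regions.

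The same lists were followed over the number of core cut ends in the held-out cells. In cells with 1 to 3 cut ends, the share of counts in the higher regions was above that of closed cells by a log2 ratio of 0.13 in kidney and the male liver to 0.43 in lung. It was higher in cells with 4 to 5 cut ends in 7 of 7 libraries, at 0.31 in the male liver to 0.99 in lung. It was higher again at each step to cells with 6 to 7 and with 8 or more cut ends in 6 of 7 libraries, reaching 0.81 in the male liver, 0.99 in colon, 1.04 in heart, 1.05 in uterus and 1.502 in lung. Kidney reached 1.67, but from only 7 cells. Spleen was the exception, with 0.55 at 6 to 7 cut ends and 0.53 at 8 or more (48 cells). For the lower regions, the ratio was lower at each step in heart, lung, uterus and the male liver. It went from 0.06 and 0.07 over -0.05 to -0.30 in colon, and in kidney it was -0.09 at 1 to 3, -0.06 at 4 to 5, -0.29 at 6 to 7 (33 cells) and -1.20 at 8 or more cut ends (7 cells). In spleen it was -0.33 at 6 to 7 and -0.28 at 8 or more. All classes of open cells were set against the same closed cells, which were matched to the open cells as a whole. Cells with 1 to 3 cut ends were set against their own matched closed cells. Depth was thus not matched class by class, and its part in the steps was not tested. These ratios have no replicates within a library and were not tested.

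**Figure D5:**
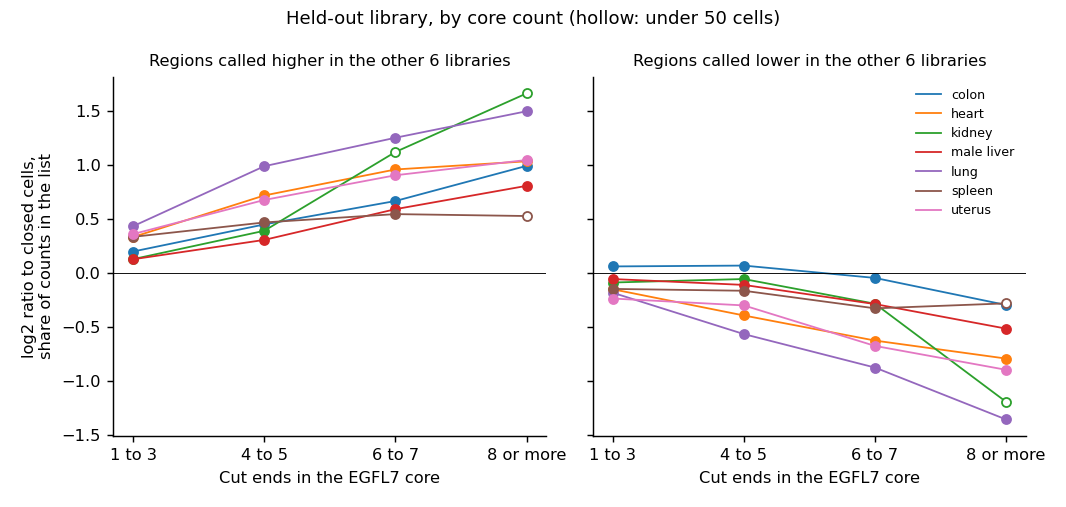
log2 ratio to closed cells of the share of counts in regions called higher (left) or lower (right) in the other 6 libraries (y axis), by core cut ends of the held-out cells (x axis). Each line is 1 held-out library and hollow points have under 50 cells; in lung the higher regions go from 0.43 to 1.502 and the lower regions from -0.18 to -1.36.

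The folds of 2 libraries over the 19942 regions had a Pearson r of 0.0579 to 0.552 with a median of 0.217 over the 21 pairs. The highest values were among heart, lung and uterus (0.539 to 0.552), all of the female animal, and the lowest was between kidney and spleen. With heart, lung and uterus, colon of the female animal had only 0.217 to 0.276, and the male liver had 0.351 to 0.463. Regions are not independent replicates, and libraries with few open cells have noisier folds, so these values are a description. Within the 4 female libraries alone, 264 regions were called higher and 59 lower, and within the 3 male libraries 6 and 0 (edgeR, 1115 at an unadjusted p below 0.05). The difference of the change between the animals passed the test in 0 of 19942 regions (edgeR interaction term, 820 at an unadjusted p below 0.05).

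Open cells also had more of their counts in the regions shared by all 8 libraries. The share ran from 54.4% in the male liver to 88.3% in uterus for open cells and from 51.6% to 83.3% for closed cells of the same libraries. The difference was 2.53 percentage points ± 2.69 (SD, n = 7), higher in 6 of 7 libraries with -2.01 points in colon (exact sign-flip permutation test, p = 0.0469, adjusted p = 0.0469). The sign in colon depended on the threshold: it was -1.71 points at 2 cut ends, 1.38 at 6 and 5.15 at 8. At 6 cut ends the mean over 6 libraries was 4.04 points. Leaving out any one library other than colon ended this call, with p between 0.0625 and 0.0938 in the same exact test.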

How the data were processed

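Nuclei of 8 organ samples were profiled with the 10x single-cell ATAC assay. The authors processed the reads with Cell Ranger ATAC (version 1.2.0, per the submitters' processing notes), called peaks per library and deposited peak lists, barcodes and the raw counts (cut ends in each peak for each barcode), which are not scaled. Per the methods, the number of cells was forced to the same value in liver, lung and colon and to a lower one in spleen. The deposited barcodes do not match that setting. They numbered 2110 in the female liver, 11935 in the male liver, 13117 in lung, 12404 in colon and 20019 in spleen. The paper kept fewer cells than the barcodes kept here. Its quality control and doublet filter were not applied here, and their part in this difference was not tested. The open shares therefore refer to the kept barcodes and not to the paper's cells. The study names macFas6 for its RNA data, and the build of the ATAC alignment is not stated in the labels or methods. The cells, regions and windows examined were chosen with earlier results of these data known.

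Deposited counts were read in Python 3.11.15 (numpy 2.4.6, scipy 1.17.1, pandas 2.3.3, scikit-learn 1.9.0). Peaks overlapping by at least 1 bp were merged across libraries, and 19960 of 295418 merged regions had a peak in all 8 lists and lay outside the EGFL7 window. Closed cells were drawn at random within 10 depth classes per library. Sums per library and group were tested with edgeR 4.0.16 (R 4.3.3, TMM, filterByExpr, quasi-likelihood F test, library as block, Benjamini-Hochberg over all regions). The test was also run on counts simulated from the fitted model. Such counts follow the model's own assumptions, so that run cannot show whether the real counts meet them. The block pairs open and closed cells of 1 library, which is how the cells were drawn. CPM values refer to the counts in the tested regions for the regions named, and to all peaks for the EGFL7 and JCHAIN windows. Folds per library used a prior count of 2. Named were the 12 higher and 8 lower regions with the smallest p among those called and of one direction in every library, the nearest called region on each side of the window, and the 3 windows of 1 Mb with most calls per direction. Neighbours were found on 30 components of binarized, TF-IDF weighted counts, without components correlated above 0.75 with depth. Doublets were scored from 2 simulated doublets per cell among 50 neighbours on 10 components, and as many cells as the square of the cell number divided by 100000 were marked. Windows were compared per library by exact sign-flip tests. Alternatives changed the normalization, test (DESeq2 1.42.0), filter, block, unit, thresholds, matching, doublets, window, region set and libraries. Gene names, sequences and motifs of regions were not analysed here.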

Additional observations from a re-analysis of the deposited data

Results flagged for a closer look

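In the JCHAIN window, the log2 fold of open over closed cells was -0.71 in colon, far from the other 6 libraries at -0.19 to -0.01 (Dixon's test, gap over range 0.753 against a critical value of 0.568). Of 8 measures checked in this way it was the only one that stood apart, and chance does so in about 1 of 20 groups.

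The female liver, with under 50 open cells, entered the comparisons only where the threshold was lowered to 2 cut ends. In its 16 open cells, 5.50% of the counts in shared regions fell in the regions called higher in the other libraries (exact binomial interval at 95% 5.10 to 5.93), against 2.65% in 16 matched closed cells (2.36 to 2.96). In the regions called lower the shares were 0.496% and 1.06%. With a threshold of 2 cut ends, chosen after the data were seen, 75 open cells had 4.11% against 1.55% in the higher regions and 0.721% against 1.05% in the lower ones. The intervals were computed on counts divided by 2, since cut ends come in pairs, and cover counting error only, not the spread between cells.

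In 2 measures, the libraries used of the female animal had higher values than those of the male animal. Neither difference passed the test after adjustment. The log2 fold in the flanks of the EGFL7 window averaged 1.44 (1.34 to 1.56, n = 4) in the female and 0.88 (0.75 to 1.05, n = 3) in the male libraries, a difference of 0.557. The excess of open cells among the neighbours averaged 50.1 points (43.8 to 58.7) and 22.6 points (10.8 to 30.1), a difference of 27.5. For each, an exact two-sided permutation test over the 35 splits gave p = 0.0286, the smallest they allow (adjusted over 4 measures, p = 0.0571). Every library used of one animal was above every library used of the other. The organs and the flanking peaks differ too, and organ and animal cannot be told apart. The female liver, which was not used, had a flank fold of 0.94, below the 1.05 of spleen. That value rests on 8 counts in its open and 4 in its closed cells. Another random draw of closed cells gave 3.05, from 8 and 1 counts. With a threshold of 2 cut ends, the 75 open cells of the female liver had a flank fold of 2.23 (31 and 6 counts). The male liver then had 0.45, spleen 0.63 and kidney 0.90. The excess of open neighbours at that threshold was 32.4 points in the female liver, 14.0 in the male liver, 18.1 in spleen and 5.89 in kidney.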

How the results depend on the processing

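Higher regions numbered 676 of 19942 tested in the comparison as reported, 1295 with DESeq2 (387 adjusted p-values missing) and 1044 without matching by depth. In regions with a peak in at least 4 libraries they numbered 1222, but of 41357 tested, and lower regions numbered 104 there. Higher regions numbered 180 at an adjusted p below 0.01, and 264 in the female and 6 in the male libraries alone. With a library left out they numbered 289 to 838 (289 without lung, 354 without heart, 366 without uterus). Lower regions numbered 149 as reported, 577 with DESeq2, 266 with counts divided by 2, 315 with binarized counts, 75 with a threshold of 2 cut ends, 77 with the whole EGFL7 window, 309 without matching, 9 at an adjusted p below 0.01, 59 and 0 in the female and male libraries alone, and 18 to 298 with a library left out (298 without colon, 95 without the male liver, 87 without spleen, 32 without heart, 26 without uterus, 18 without lung). Without the replicate block, which ignores the pairing by library, edgeR called 0 higher and 0 lower regions (536 at an unadjusted p below 0.05). Another random draw of closed cells called 693 and 111, of which 554 and 66 were shared with the lists reported. The interaction with the animal stayed at 0 under the 10 alternatives run.

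The JCHAIN fold lost its call at a threshold of 2 (-0.00799, p = 0.906) or 6 cut ends (-0.28, p = 0.156), a minimum of 2000 counts (-0.19, p = 0.0781), another draw (-0.0876, p = 0.531) and without likely doublets (-0.15, p = 0.297, all exact permutation tests). The share in shared regions did at a threshold of 2 (1.35 points, exact p = 0.102), was 4.04 at 6 and ranged over 1.95 to 3.29 with a library left out. Open cells numbered 18943 at a threshold of 2, 4906 at 6, 8175 with a minimum of 2000 counts and 6803 without likely doublets. The flanks and the neighbours kept direction and call under every alternative run. All of these had at least 6 libraries, and with that many of 1 sign the exact test always passes. Keeping the call thus adds nothing to keeping the direction. A threshold of 8 cut ends was not tested for either measure. The mean difference in neighbours was 23.6 points at a threshold of 2 cut ends and 49.5 at 6. Since all 7 libraries were positive in both measures, leaving 1 out could not end either call. The 12 named higher regions kept their call in 279 of 300 combinations with an alternative the 8 lower in 170 of 200 and the nearest regions beside the EGFL7 window in 35 of 50, none reversed. At 6 cut ends kidney had 40 open cells and dropped out, and at 8 only 5 libraries were left. Few counts limit the single values of kidney and the female liver.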
